A study of Mus musculus with 4 samples.

Results

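Cxcl9, Cxcl10 and Cxcl11, the genes of the ligands of the chemokine receptor CXCR3, and Cxcr3 itself are 4 of the 34097 genes measured in this study of transplanted mouse hearts. They were taken by their symbols, without use of their values. Cells of hearts collected on day 5 after transplantation were profiled by single-cell RNA sequencing with 10x Genomics 3' chemistry. The grafts were 3 allogeneic hearts (replicates 1, 2 and 3), whose donor and recipient differ genetically, and 1 isogeneic heart (labelled replicate 2), whose donor and recipient match. The grafts were digested with enzymes into single cells before loading. The sources used here give no mouse strain, age or cell sort, and the labels do not say whether the replicates are separate animals. The p-values below therefore measure only the spread between these libraries, which may be technical, and the single isograft is assumed to vary as the allografts do.

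CXCR3 is a receptor of activated T cells and natural killer (NK) cells, which it guides towards tissue that releases its ligands. Interferon-gamma, made chiefly by those same lymphocytes, induces all 3 ligands. Cxcl9 depends mainly on interferon-gamma, whereas Cxcl10 is also induced by type I interferon and by NF-kB.

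After filtering, 4784, 7675 and 5992 cells were kept in allogeneic replicates 1, 2 and 3, against 10349 in the isograft, from libraries of 51054446 to 63434265 unique molecular identifiers (UMIs, 1 per captured transcript) and of 100038951 UMIs. Cells were assigned to classes by marker genes, so that "phagocyte", "T cell" and the like below mean cells with that marker profile. Replicate 3 stood apart from the other allografts in its makeup. Fibroblasts made up 39.5% of its kept cells, while replicate 1 had 1.55%, replicate 2 had 2.11% and the isograft had 49.0%. Phagocytes made up 47.7%, 44.0% and 18.8% of cells in the allografts and 27.8% in the isograft. T cells numbered 986, 1545 and 383 in the allografts and 33 in the isograft. Heart muscle cells were scarce in all 4 libraries, with 47, 106 and 11 cells carrying that profile in the allografts and 1 in the isograft, although none of the 7 heart muscle markers was at 0. Pairs of libraries shared between 7 and 27 cell barcodes.

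All 3 ligand genes lie side by side on the minus strand of chromosome 5 in the mm10 build, with Cxcl9 at chr5:92321347-92328079, Cxcl10 at chr5:92346638-92348889 and Cxcl11 at chr5:92359544-92365485. Cxcr3 lies on the minus strand of the X chromosome at chrX:101731535-101734269. Art3, on the opposite strand at chr5:92331827-92414628, spans both Cxcl10 and Cxcl11, and the sources used here do not say whether the counting used strand. Reads of Art3 and of these 2 ligands may then be mixed, which was not tested; Art3 received 414, 419 and 1267 UMIs in the allografts and 1348 in the isograft. The annotation lists Cxcl11 as a polymorphic pseudogene, meaning a gene that is intact in some mouse strains and disrupted in others.

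The stretches of 250 bases before the RefSeq starts of Cxcl10 and Cxcl9 are shown as a description, and their part in the levels of either gene was not tested. Both are on the minus strand of chromosome 5 in GRCm38.p6, at chr5:92348890-92349139 for Cxcl10 and chr5:92328080-92328329 for Cxcl9. Capitals mark letters that match 1 of the motifs searched.
Cxcl10: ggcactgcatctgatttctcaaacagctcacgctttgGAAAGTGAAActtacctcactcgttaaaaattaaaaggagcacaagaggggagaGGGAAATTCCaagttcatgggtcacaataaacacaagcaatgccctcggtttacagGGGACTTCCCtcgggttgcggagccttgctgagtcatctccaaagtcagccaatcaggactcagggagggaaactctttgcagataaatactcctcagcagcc
Cxcl9: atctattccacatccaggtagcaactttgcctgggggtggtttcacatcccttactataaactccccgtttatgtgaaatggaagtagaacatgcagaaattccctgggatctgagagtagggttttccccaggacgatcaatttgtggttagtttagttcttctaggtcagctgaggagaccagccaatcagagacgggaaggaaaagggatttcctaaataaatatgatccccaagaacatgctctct

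The motifs searched on both strands were the interferon-stimulated response element (a pair of GAAA runs set 2 bases apart), the gamma-activated site (TTCNNNGAA) and the NF-kB consensus. In the Cxcl10 window, GAAAGTGAAA begins 213 bases before the start, and NF-kB matches begin 159 and 103 bases before it, at GGGAAATTCC and GGGACTTCCC. The Cxcl9 window, like that of Cxcr3, held no match to any of the 3 motifs. Of 32851 RefSeq promoter windows of this length, 2.98% held the response element, 7.02% the gamma-activated site and 3.90% the NF-kB consensus. A match or its absence in this window is a description of the letters and no evidence of binding. Only exact matches to these patterns were sought, so a window without a match may still hold other or imperfect sites.

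Cxcl9 was high in endothelial cells, fibroblasts, phagocytes, neutrophils and dendritic cells of the allografts and close to absent from those of the isograft. Levels are in CPM, the usual counts-per-million scale, with each class of each library scaled by its own UMI total. Endothelial cells, which line the vessels that T cells must cross, had 6975, 6017 and 10100.1 CPM in allogeneic replicates 1, 2 and 3, against 19.4 CPM in the isograft. Fibroblasts had 4104, 3683 and 4361 CPM in the allografts, against 0.746 CPM in the isograft. Phagocytes, the macrophages and monocytes, had 2943, 2379 and 3601 CPM in the allografts, against 1.70 CPM in the isograft. In each of these classes every allograft lay far above the isograft. The share of all genes separated in this way was not counted, so here and below such separation is only a description.

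edgeR's quasi-likelihood test with Benjamini-Hochberg adjustment over all genes tested called Cxcl9 higher in the allografts in endothelial cells (log2 change 8.68, SE 0.47, adjusted p = 0.0025), fibroblasts (12.34, SE 0.56, adjusted p = 0.000406) and phagocytes (10.75, SE 0.51, adjusted p = 0.00515). Neutrophils had 976, 818 and 1261 CPM in the allografts, and dendritic cells 820, 956 and 1973 CPM. Neither class held a Cxcl9 UMI in the isograft, which puts the lowest allograft at least 110-fold higher in neutrophils and at least 129-fold higher in dendritic cells, taking 3 counts as the floor. The test called both (neutrophils, edgeR adjusted p = 0.00236; dendritic cells, edgeR adjusted p = 0.00608).

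For scale, the members called must be read against all genes. Fits without replicate 3 called many more genes in each of these classes, as counted in the last section, and member calls from those fits must be read against that. The test called 7.94% of 16087 genes in phagocytes, 3.28% in fibroblasts, 4.01% in endothelial cells, 2.97% in neutrophils and 1.24% in dendritic cells, in either direction. In T cells 0% of 13369 genes passed, so none of the 4 members did; 33 isograft cells entered that comparison, where 1456 genes had an unadjusted p below 0.05 by edgeR and DESeq2 called 108. Cxcl9 in T cells passed without replicate 3 (edgeR adjusted p = 0.00627), with no expression filter (edgeR adjusted p = 0.0448) and with DESeq2 (adjusted p = 0.0325). Cxcl10 in T cells, with 16 UMIs in the isograft, passed without replicate 3 (-1.86, edgeR adjusted p = 0.0496). The T cell fit without replicate 3 called 265 genes, against which these calls must be read. The number called with no expression filter is not given.

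**Figure D1:**
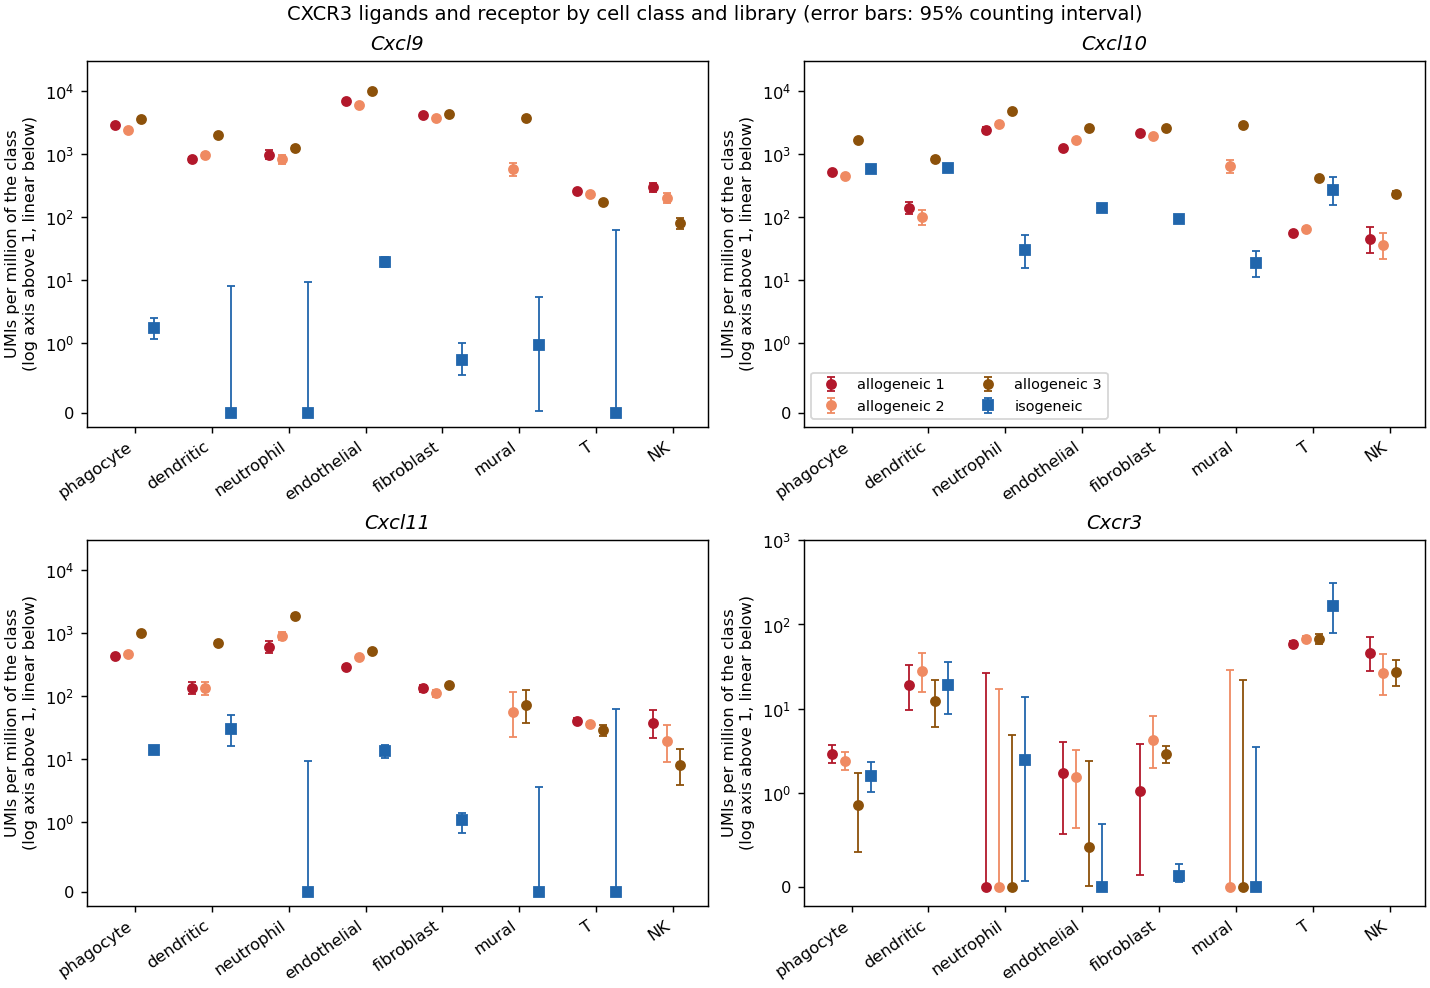
Level of each gene (CPM of the class; log axis above 1, linear below) in 8 cell classes, with 1 point per library of at least 20 cells and its 95% counting interval. Cxcl9 and Cxcl11 of the isograft (squares) lie below the allografts (circles) in every class with a value for both, with wide intervals in T cells, whereas Cxcl10 of isograft phagocytes and dendritic cells lies among the allografts.

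Cxcl10 rose in neutrophils, fibroblasts and endothelial cells of the allografts, whereas its level in phagocytes did not separate the grafts. Phagocytes had 512, 449 and 1667 CPM in the allografts, against 577 CPM in the isograft, which lay inside the range of the allografts. The log2 change was 0.57 (SE 0.81, edgeR adjusted p = 0.686). Replicate 3 alone gave the change its sign, since without it the value was -0.22 (edgeR adjusted p = 0.127).

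Both kinds of phagocyte that were told apart gave values of this order. Macrophages with the C1q profile of resident cells had 513, 420.4 and 1920 CPM in the allografts, against 591 CPM in the isograft. Monocytes had 512, 499.9 and 1488 CPM in the allografts, against 483 CPM in the isograft. Dendritic cells had 140.3, 99.3 and 838 CPM of Cxcl10 in the allografts, against 604 CPM in the isograft, and the test made no call (log2 change -0.85, SE 0.93, edgeR adjusted p = 0.724). Without replicate 3 their Cxcl10 was lower in the allografts (-2.46, edgeR adjusted p = 1.64e-19).

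Neutrophils carried the highest mean Cxcl10 level among the 7 classes with at least 20 cells in every allograft. They had 2430, 2997 and 4913 CPM in the allografts, against 29.7 CPM from 12 UMIs in the isograft (log2 change 7.08, SE 1.03, edgeR adjusted p = 0.00488). Fibroblasts had 2159, 1963 and 2570 CPM in the allografts, against 92.1 CPM in the isograft (4.54, SE 0.41, edgeR adjusted p = 0.00148). Endothelial cells had 1248, 1687 and 2564 CPM in the allografts, against 137.5 CPM in the isograft (3.78, SE 0.47, edgeR adjusted p = 0.0151). In these 3 classes every allograft stood above the isograft, unlike in phagocytes, though the share of all genes separated in this way was not counted. Mural cells, the contractile cells around vessels, had 634 and 2865 CPM in allogeneic replicates 2 and 3, the allografts with at least 20 such cells, against 18.3 CPM in the isograft.

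The difference between these effects was tested directly, as the allogeneic effect in a class minus that in phagocytes. For Cxcl10 it was 6.44 in neutrophils (SE 0.95, edgeR adjusted p = 0.00355), where 0.195% of 15916 genes passed, and 4.39 in fibroblasts (SE 0.81, edgeR adjusted p = 0.00422), where 3.83% passed. In endothelial cells it was 3.50 (SE 0.79, edgeR adjusted p = 0.0227), where 1.78% passed, and there the adjusted p was 0.0781 without replicate 1 and 0.141 without replicate 2. Dendritic cells (-1.64, edgeR adjusted p = 0.517) and T cells (-0.87, edgeR adjusted p = 0.842) did not differ detectably from phagocytes in this effect, and 0.258% and 1.31% of genes passed there; without replicate 3 dendritic cells did (-2.19, edgeR adjusted p = 1.74e-05). For Cxcl9 and Cxcl11 no class passed this test in the main fit with all 3 allografts. The shares of genes given here belong to that fit. The share passing this test without replicate 3 is not given, so the calls of this paragraph from that fit cannot be read against it. Without replicate 3, Cxcl9 passed in endothelial cells (-2.18, edgeR adjusted p = 1.23e-06; with classes from clusters -2.03, edgeR adjusted p = 0.0345) and fibroblasts (1.64, edgeR adjusted p = 0.000318), and Cxcl11 in dendritic cells (-2.98, edgeR adjusted p = 0.00231), fibroblasts (1.67, edgeR adjusted p = 0.00108) and neutrophils (edgeR adjusted p = 0.0458).

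**Figure D2:**
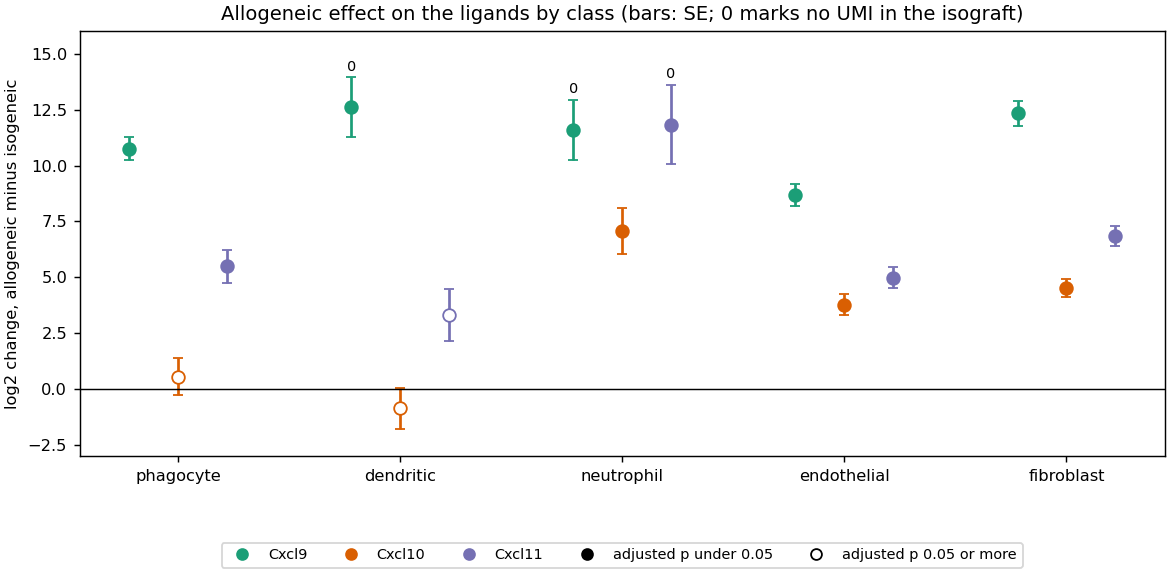
Log2 change, allogeneic minus isogeneic, of the 3 ligands in 5 cell classes, with SE. Filled points passed edgeR's test; the Cxcl10 points of phagocytes (0.57) and dendritic cells (-0.85) are open and sit near 0, whereas those of neutrophils, endothelial cells and fibroblasts are filled. A 0 above a point marks no UMI in the isograft, where the fitted value depends on the prior count.

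Cxcl11, the ligand that binds CXCR3 most tightly and also the scavenging receptor ACKR3, followed Cxcl9 in direction. Phagocytes had 439, 469.7 and 1011 CPM in the allografts, against 13.9 CPM in the isograft (log2 change 5.50, SE 0.73, edgeR adjusted p = 0.0208). Endothelial cells had 287, 412 and 513 CPM in the allografts, against 13.2 CPM in the isograft (4.99, SE 0.46, edgeR adjusted p = 0.00612). Fibroblasts had 132, 110.1 and 150.3 CPM in the allografts, against 1.08 CPM in the isograft (6.85, SE 0.45, edgeR adjusted p = 0.000603). The groups did not overlap in any of these classes, and again the share of all genes that did not overlap was not counted. Neutrophils had 607, 901 and 1902 CPM in the allografts and no UMI in the isograft, so that the lowest allograft was at least 81.7-fold higher (edgeR adjusted p = 0.00533). Dendritic cells had 136, 133.1 and 691 CPM in the allografts, against 29.7 CPM in the isograft, and this difference did not pass (edgeR adjusted p = 0.235), but it did without replicate 3 (log2 change 2.03, edgeR adjusted p = 9.14e-06).

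Within the allografts the 3 ligands ranked these 7 classes differently. Cells with the Schwann profile, a scarce class at a mean of 0.0534% of allograft cells, averaged 6654 ± 1981 CPM of Cxcl10 and 13460 ± 15418 CPM of Cxcl9 (SD). These and other scarcer classes, such as mural cells, are left out of the order that follows. Mean Cxcl9 was highest in endothelial cells (7697 ± 2135 CPM, SD, n = 3), then fibroblasts (4049 ± 342), phagocytes (2974 ± 611), dendritic cells (1249 ± 630.1), neutrophils (1018 ± 225), T cells (220.3 ± 43.8) and NK cells (191.8 ± 107.6). The ranges of dendritic cells and neutrophils overlapped, as did those of T and NK cells. Mean Cxcl10 was highest in neutrophils (3446 ± 1301 CPM), then fibroblasts (2231 ± 309.6), endothelial cells (1833 ± 670.1), phagocytes (876 ± 686) and dendritic cells (359 ± 415), and each of these ranges overlapped the next. Mean Cxcl11 was highest in neutrophils (1137 ± 679 CPM) and phagocytes (639.8 ± 322), and fibroblasts averaged 130.8 ± 20.1 CPM.

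A fit across the classes of the 3 allografts, with the library as a block, tested each class against phagocytes. Neutrophils were lower in Cxcl9 (log2 difference -1.11, SE 0.37, edgeR adjusted p = 0.0194) and higher in Cxcl10 (2.55, SE 0.41, edgeR adjusted p = 3.81e-05) and Cxcl11 (1.29, SE 0.47, edgeR adjusted p = 0.0323); 42.1% of 12862 genes passed in that comparison. Fibroblasts were higher in Cxcl10 (1.61, SE 0.40, edgeR adjusted p = 0.00172) and lower in Cxcl11 (-2.32, SE 0.49, edgeR adjusted p = 0.000373), with Cxcl9 at 0.32 (SE 0.36, edgeR adjusted p = 0.478), and 52.4% of genes passed. Endothelial cells were higher in Cxcl9 (1.10, SE 0.36, edgeR adjusted p = 0.0148) and Cxcl10 (1.10, SE 0.39, edgeR adjusted p = 0.0222), where 53% of genes passed, but both calls were lost without replicate 1 (adjusted p = 0.0605 and 0.113) and without replicate 2 (adjusted p = 0.116 and 0.256). Dendritic cells were lower in all 3 ligands (-1.53, -1.80 and -1.39 for Cxcl9, Cxcl10 and Cxcl11), where 21.2% of genes passed. Several of these calls were lost in other fits. The neutrophil call for Cxcl9 was lost without replicate 1 or 2 (adjusted p = 0.135 and 0.154) and with DESeq2 (0.0733), and that for Cxcl11 without replicate 2 (0.132) and without the library block (0.0597). The fibroblast call for Cxcl10 was lost without replicate 1 (0.0508), and the dendritic cell calls for all 3 ligands were lost without replicate 1 (0.0967, 0.0726 and 0.196) and without replicate 2 (0.108, 0.0607 and 0.362). The dendritic cell call for Cxcl11 was also lost with DESeq2 (0.0663) and without the block (0.184). Without replicate 3, fibroblasts passed for Cxcl9 (0.33, adjusted p = 0.0359) and endothelial cells for Cxcl11 (-0.70, adjusted p = 0.00299).

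Neutrophils hold little RNA and share markers with phagocytes, whose values are therefore given. The 8 phagocyte markers summed to 7427, 7792 and 5828 CPM in neutrophils of the allografts, against 6760 CPM in those of the isograft, and their part in the Cxcl10 level was not tested. In phagocytes of the allografts the same markers summed to 10880.2, 11281 and 12766 CPM. In fibroblasts they summed to 909, 693 and 1253 CPM in the allografts, against 435 CPM in the isograft, and their part in the Cxcl9 level was not tested. In endothelial cells they summed to 849, 791 and 156 CPM in the allografts, against 729 CPM in the isograft.

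Which cells supplied most of Cxcl9 and Cxcl10 differed between the libraries, as did the makeup of the libraries. Phagocytes held 64.9%, 56.9% and 18.6% of the Cxcl9 UMIs of kept cells in allogeneic replicates 1, 2 and 3, and 14.8% of 189 UMIs in the isograft. Fibroblasts held 6.91%, 6.55% and 62.0% in the allografts, against 23.3% in the isograft. Endothelial cells held 18.0%, 23.1% and 13.2% in the allografts, against 56.1% in the isograft (95% Clopper-Pearson interval 48.7% to 63.3%). With predicted doublets kept, the isograft shares were 43.5% in fibroblasts and 40.5% in endothelial cells, so its largest source changed. The main source was therefore the phagocyte in replicates 1 and 2 and the fibroblast in replicate 3, although fibroblasts had 4104, 3683 and 4361 CPM of Cxcl9 in these 3 libraries. The interval for phagocytes of replicate 1 was 64.6% to 65.1%, and such intervals cover counting error only.

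Cxcl10 followed the same split. Phagocytes held 52.9%, 42.1% and 15.5% of its UMIs in the allografts, against 56.5% in the isograft. Fibroblasts held 17.0%, 13.7% and 65.9% in the allografts, against 32.4% in the isograft, and endothelial cells 15.1%, 25.5% and 6.04%, against 4.48%. Neutrophils, despite their high level, held 1.42%, 2.17% and 3.76% in the allografts, against 0.0715% in the isograft. They made up 1.21%, 1.26% and 5.17% of cells in the allografts and 2.66% in the isograft. A share of UMIs also depends on the RNA held per cell, so cell numbers alone do not set it. Cxcl11 came mostly from phagocytes in every allograft, at 82.2%, 75.1% and 51.9%, against 56.1% of 408 UMIs in the isograft. The share that fell in barcodes left out as low in quality or as doublets was between 6.52% and 11.6% for the ligands in the allografts and between 14.5% and 27.9% in the isograft.

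**Figure D3:**
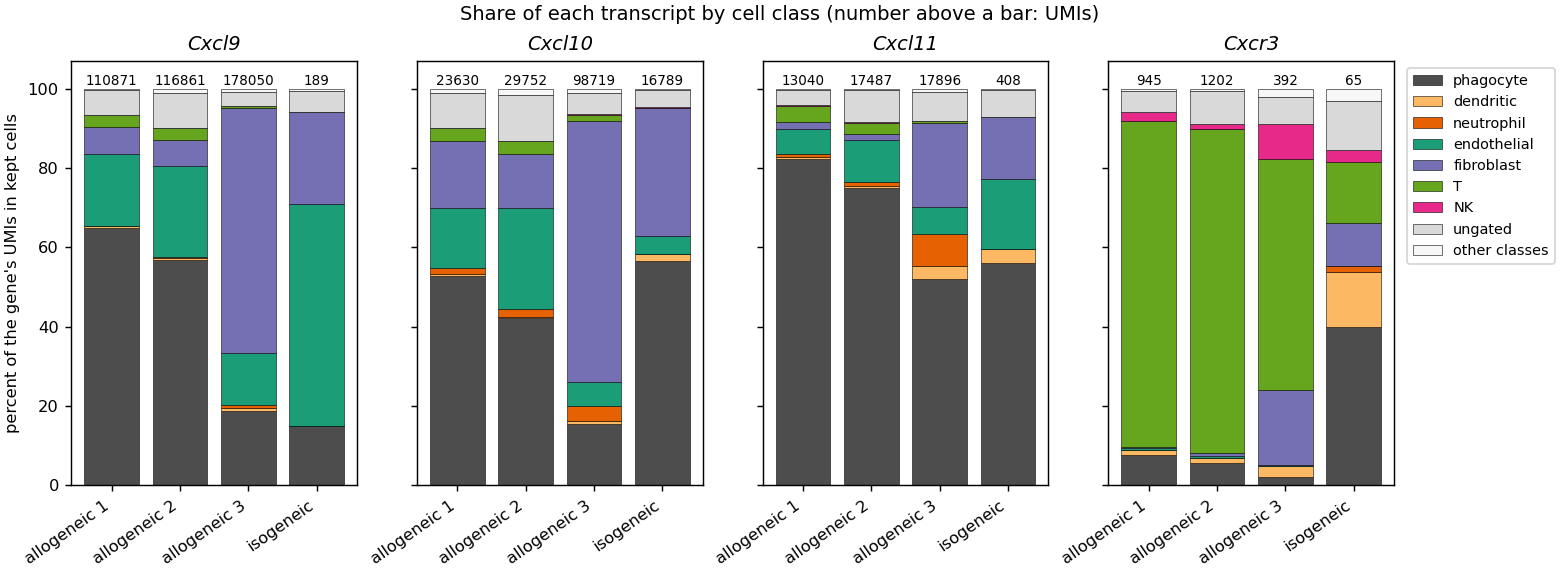
Share of the UMIs of each gene held by each cell class, per library, with the number of UMIs above each bar. The fibroblast share of Cxcl9 and Cxcl10 is largest in allogeneic replicate 3 (62.0% and 65.9%), and Cxcr3 comes mainly from T cells in the allografts.

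Over all kept cells, the level of a gene reflects both cell numbers and RNA per cell, which cannot be told apart there. Cxcl9 stood at 2373, 2055 and 3819 CPM in the allografts, against 2.20 CPM in the isograft, and Cxcl10 at 506, 523 and 2117 CPM, against 195.6 CPM. Although every allograft was above the isograft for both, none of the 4 members passed (edgeR adjusted p = 0.119 for Cxcl9 and 0.343 for Cxcl10), and 0% of 20012 genes did. By edgeR 3418 genes had an unadjusted p below 0.05, and DESeq2 called 1596. Without replicate 3 edgeR called 12638 genes, with Cxcl9 (log2 change 9.97, adjusted p = 9.46e-07) and Cxcl10 (1.39, adjusted p = 4.81e-05), Cxcl11 (5.95, adjusted p = 1.07e-06) and Cxcr3 (4.77, adjusted p = 2.23e-06) among them.

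The ratio of Cxcl9 to Cxcl10 UMIs separated classes and grafts. UMIs count 3' ends and not length, but the capture of either gene may differ, so the ratio is compared between cells and not read as a ratio of transcripts. Phagocytes had 5.75, 5.30 and 2.16 Cxcl9 UMIs per Cxcl10 UMI in the allografts, against 0.00295 in the isograft. Endothelial cells had 5.59, 3.57 and 3.94 in the allografts, against 0.141 in the isograft. Fibroblasts had 1.90, 1.88 and 1.70 in the allografts, a narrow range although replicate 3 held 2367 of these cells and replicate 1 only 74, against 0.00810 in the isograft. Neutrophils had 0.402, 0.273 and 0.257 in the allografts, so they were the myeloid class with more Cxcl10 than Cxcl9 UMIs in all 3. With 3 libraries against 1, an exact permutation test on the log2 ratio gave p = 0.25 in phagocytes, endothelial cells and fibroblasts, two-sided, which is the smallest value this design allows.

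**Figure D4:**
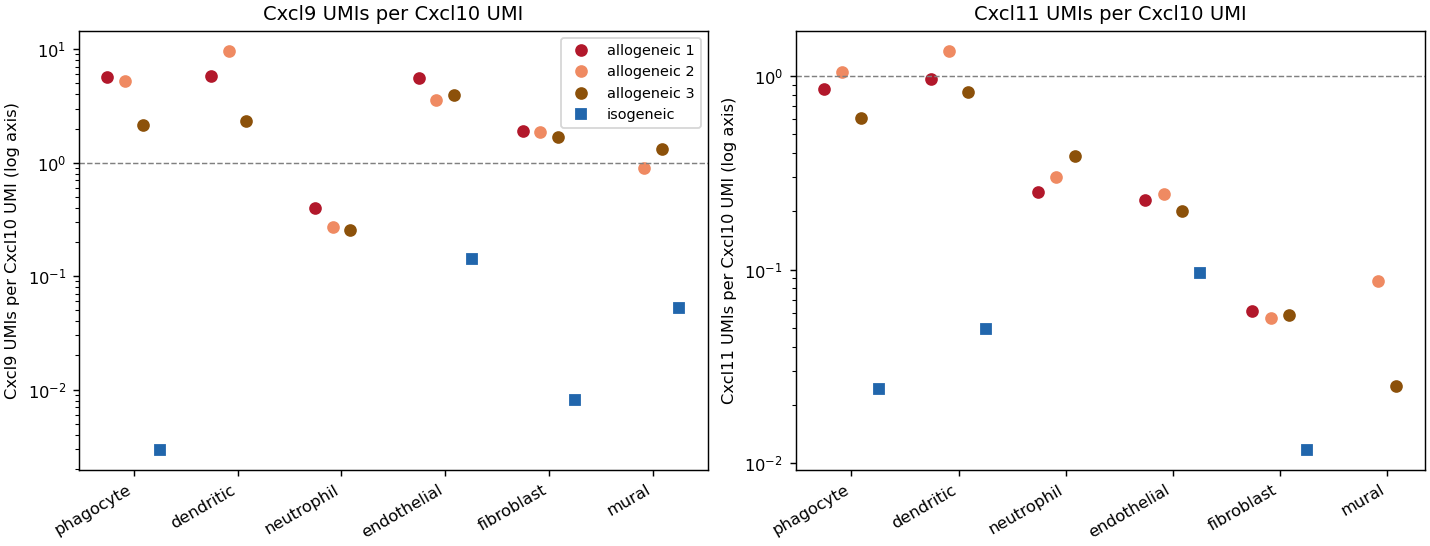
UMIs of Cxcl9 (left) and Cxcl11 (right) per UMI of Cxcl10, on log axes, in 6 cell classes, 1 point per library; the dashed line marks a ratio of 1. Neutrophils lie below the line for Cxcl9 in all 3 allografts (0.402, 0.273 and 0.257) and fibroblasts have low Cxcl11 ratios there (0.0611, 0.0561 and 0.0585); classes with no UMI of a gene have no point.

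The ratio of Cxcl11 to Cxcl10 UMIs was also higher in the allografts, and it differed between phagocytes and fibroblasts. Phagocytes had 0.858, 1.05 and 0.606 Cxcl11 UMIs per Cxcl10 UMI in the allografts, against 0.0241 in the isograft, whereas fibroblasts had 0.0611, 0.0561 and 0.0585 in the allografts, against 0.0118 in the isograft. In single phagocytes thinned to 2000 UMIs each, 45.3%, 36.9% and 59.6% of cells held UMIs of both Cxcl9 and Cxcl10 in the allografts, against 0.155% in the isograft, and 2.33%, 4.28% and 13.1% held Cxcl10 without Cxcl9, against 33.6% in the isograft. Of neutrophils, 24.3%, 26.8% and 41.0% held Cxcl10 without Cxcl9 in the allografts. These percentages rest on the 37, 56 and 212 neutrophils deep enough for thinning, of 58, 97 and 310. Thinning left out 264, 434 and 100 phagocytes in the allografts and 294 in the isograft for having fewer UMIs.

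T cells, which are not a main source of these ligands, also held their UMIs. How much of this is free RNA was not tested. After thinning, 33.0%, 30.2% and 19.8% of them held a Cxcl9 UMI and 9.60%, 9.44% and 32.4% a Cxcl10 UMI, against 91.1%, 85.8% and 78.7% of phagocytes for Cxcl9 and 47.6%, 41.2% and 72.7% for Cxcl10. Before thinning the T cell shares were 77.4%, 64.4% and 42.3% for Cxcl9 and 28.9%, 23.0% and 51.7% for Cxcl10, at median depths of 10785, 7151 and 5378 UMIs, against 10156, 7760 and 7586 UMIs in phagocytes. In replicate 3, T cells held 585 Cxcl9 and 1422 Cxcl10 UMIs, a ratio of 0.411, whereas all kept cells of that library had a ratio of 1.80. The 8 phagocyte markers summed to 710.3, 699 and 242 CPM in T cells of the allografts, against 317 CPM in the isograft, and their part in the ligand counts was not tested.

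The genes around the ligands were counted by list. Of all genes tested, 4.54% rose in allograft phagocytes, 2.55% in endothelial cells, 2.73% in fibroblasts, 2.86% in neutrophils and 0.769% in dendritic cells. Of 15 genes chiefly induced by interferon-gamma, 15 rose in allograft phagocytes (median log2 change 6.99, against -0.02 over all genes tested), 14 in endothelial cells (median 5.41), 15 in fibroblasts (median 6.25), 8 of 13 tested in neutrophils (median 6.71) and 7 of 14 in dendritic cells (median 4.05). Gbp8, a guanylate-binding protein gene, rose by a log2 change of 9.03 in phagocytes (SE 0.61, edgeR adjusted p = 0.00778), and Nos2, the inducible nitric oxide synthase, by 9.82 (SE 0.97, edgeR adjusted p = 0.0119).

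Genes chiefly induced by type I interferon gave other counts. Of this list, 2 of 15 rose in phagocytes (median 1.44) and 0 of 14 in dendritic cells (median 0.94), against 9 of 12 in neutrophils (median 3.76), 7 of 14 in endothelial cells (median 2.48) and 4 of 15 in fibroblasts (median 2.16). In neutrophils Ifit3, an interferon-induced antiviral gene, rose by 5.70 (SE 0.87, edgeR adjusted p = 0.00612), and in endothelial cells Irf7, a transcription factor of the interferon response, by 4.23 (SE 0.28, edgeR adjusted p = 0.00325). No NF-kB target gene passed of 15 in fibroblasts (median 1.20) or of 14 in neutrophils (median 0.36). In phagocytes 2 rose and 1 fell of 15, the faller being the neutrophil chemoattractant Cxcl1 (-2.84, SE 0.36, edgeR adjusted p = 0.0196). Whether the lists differed between classes was not tested.

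Ifnb1, the gene of interferon-beta, was singled out after its values were seen, because it ranked the phagocytes of the 4 libraries in the same order as Cxcl10. It stood at 2.05, 1.22 and 375 CPM in allograft phagocytes, against 244 CPM in those of the isograft. Replicate 3 and the isograft were thus both high in Ifnb1, and replicates 1 and 2 held only 50 and 34 UMIs. Cxcl10 in these phagocytes was high in replicate 3 alone (1667 CPM). The isograft, at 577 CPM of Cxcl10, was close to replicates 1 and 2 (512 and 449 CPM). Dendritic cells had 0, 0 and 303 CPM of Ifnb1 in the allografts, against 524 CPM in the isograft, so that replicate 3 and the isograft were again the high libraries. The difference between grafts did not pass in phagocytes (edgeR adjusted p = 0.838). Tnf, a target of NF-kB, was less uneven, at 273.8, 271 and 425 CPM in allograft phagocytes, against 386 CPM in the isograft.

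Within a library, the phagocytes that held a Cxcl10 UMI after thinning differed from those that did not. These are descriptions over cells of 1 library, with no test. In the isograft 872 phagocytes with a Cxcl10 UMI had 592 CPM of Ifnb1, against 57.0 CPM in the 1714 without one. In replicate 3 the values were 498 CPM in cells with Cxcl10, against 41.2 CPM in cells without it. Rsad2, the antiviral enzyme viperin, stood at 365 CPM in isograft phagocytes with Cxcl10, against 43.0 CPM in those without, and at 1019 CPM in replicate 3 phagocytes with Cxcl10, against 335 CPM in those without. In the isograft 14 of 15 type I interferon genes were higher in the cells with Cxcl10 (median log2 ratio 1.73) and in replicate 3 14 of 15 (median 1.12). The medians were only 0.36 and 0.31 in replicates 1 and 2, where 15 and 14 of 15 genes were higher. The NF-kB and interferon-gamma lists were higher too in cells with Cxcl10. NF-kB targets were higher in 13, 15 and 14 of 15 genes in the allografts (medians 0.24, 0.15 and 0.38) and 12 of 15 in the isograft (0.25). Interferon-gamma genes were higher in 12, 12 and 13 of 15 in the allografts (0.13, 0.17 and 0.26) and 8 of 9 measured in the isograft (0.90). Not every list was higher: in replicate 1 only 4 of 13 measured chemokine receptors of T cells other than Cxcr3 were (median -0.05).

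**Figure D5:**
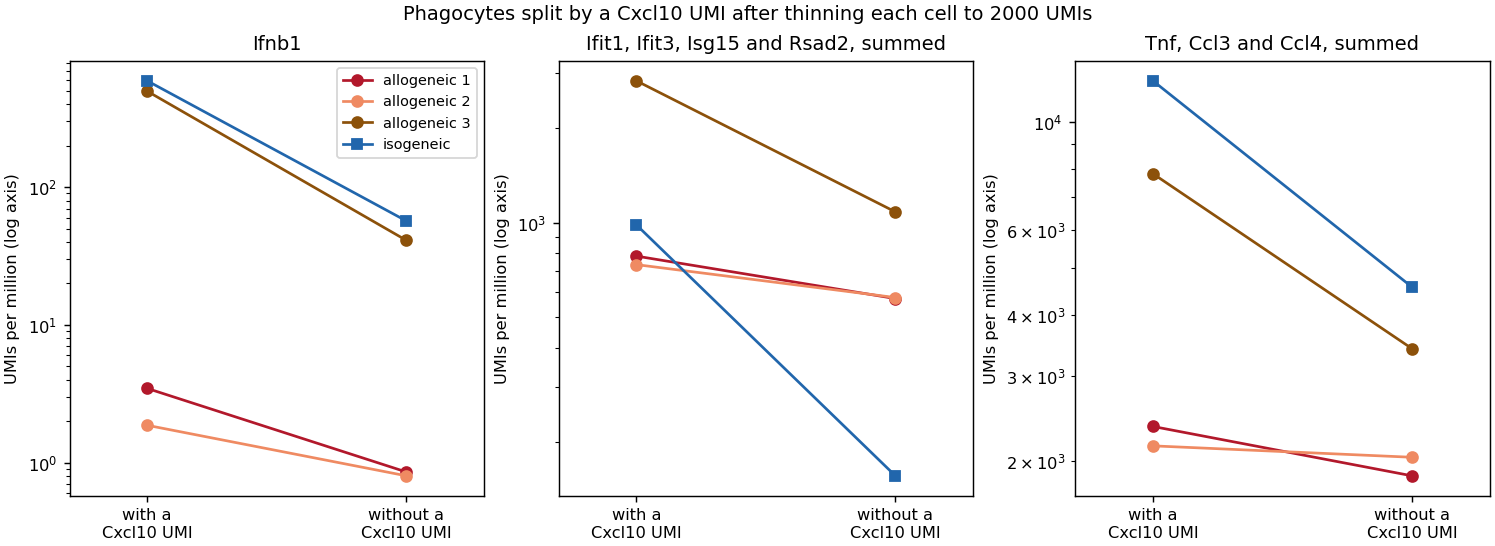
Levels (CPM, log axes) of Ifnb1, of 4 type I interferon genes summed and of 3 NF-kB target genes summed, in phagocytes with and without a Cxcl10 UMI after thinning to 2000 UMIs per cell, 1 line per library. Ifnb1 is high in the cells with Cxcl10 of the isograft (592) and of allogeneic replicate 3 (498), and stands at 3.46 and 1.87 in those of replicates 1 and 2.

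Phagocytes split by Cxcl9 gave smaller medians for type I interferon genes than the Cxcl10 split in each allograft. For interferon-gamma genes the medians were larger than in the Cxcl10 split. Interferon-gamma genes were higher in cells with a Cxcl9 UMI, with median log2 ratios of 0.28, 0.27 and 0.44 over 15 genes in the 3 allografts. Type I interferon genes had medians of 0.06, 0.17 and 0.40 in the same split, with 9, 10 and 13 of 15 higher, and NF-kB targets had medians of -0.31, -0.31 and 0.09. Ifng itself, the gene of interferon-gamma, stood at 601, 459.9 and 6312 CPM in T cells of the allografts, against 200.3 CPM from 12 UMIs in the isograft. In NK cells of the allografts it stood at 260.0, 248 and 543 CPM.

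Cxcr3, the receptor, had its highest mean level in T cells among the 7 classes with at least 20 cells in every allograft. Plasmacytoid dendritic cells, a scarcer class at a mean of 0.164% of allograft cells, averaged 52.2 ± 29.4 CPM in the allografts (SD), above NK cells at 33.3 ± 11.4 CPM. T cells had 58.6, 68.0 and 66.9 CPM in the allografts, against 166.9 CPM in the isograft, a value that rests on 10 UMIs in 33 cells (95% Poisson interval 80.0 to 307). NK cells had 46.4, 26.5 and 27.0 CPM in the allografts, and dendritic cells 18.9, 28.1 and 12.4 CPM in the allografts, against 19.1 CPM in the isograft. Phagocytes had 2.95, 2.40 and 0.870 CPM in the allografts, against 1.58 CPM in the isograft. No Cxcr3 UMI was seen in neutrophils of the allografts, which allows up to 21.7, 13.9 and 3.97 CPM.

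Within the allografts T cells lay above phagocytes by 4.61 on the log2 scale (SE 0.31, edgeR adjusted p = 3.26e-10), NK cells by 3.48 (SE 0.38, edgeR adjusted p = 2.96e-07) and dendritic cells by 2.88 (SE 0.43, edgeR adjusted p = 5.11e-05). In the T and NK cell comparisons 60% and 44.8% of genes passed. Fibroblasts (0.44) and endothelial cells (-0.99) did not differ detectably from phagocytes (edgeR adjusted p = 0.35 and 0.11). Before thinning, 39.8%, 37.5% and 37.1% of allograft T cells held a Cxcr3 UMI, and after it 11.6%, 15.4% and 15.2%, against 0%, 0.169% and 0% of endothelial cells.

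T cells held 82.3%, 81.7% and 58.4% of the Cxcr3 UMIs of kept cells in the allografts, against 15.4% of 65 UMIs in the isograft (95% Clopper-Pearson interval 7.63% to 26.5%). Phagocytes held 7.62%, 5.57% and 2.04% in the allografts, against 40.0% in the isograft. Fibroblasts of replicate 3 held 18.9% of its Cxcr3, at 2.93 CPM. Their level was 1.07, 4.33 and 2.93 CPM in the allografts, against 0.119 CPM in the isograft, and the allogeneic effect exceeded that of phagocytes (4.18, SE 0.82, edgeR adjusted p = 0.00742). It no longer passed without replicate 2 (4.10, edgeR adjusted p = 0.0714) or with classes taken from clusters (3.002, edgeR adjusted p = 0.0635). Taken alone, the fibroblast change of 4.46 (SE 1.13) missed the threshold (edgeR adjusted p = 0.0874). The 6 T cell markers, none of them at 0, summed to 75.6, 173.6 and 150.0 CPM in fibroblasts of the allografts, against 15.6 CPM in those of the isograft, and to 3732 to 4850 CPM in allograft T cells. Their part in the Cxcr3 of fibroblasts was not tested.

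Cxcr3 was lower in dividing than in non-dividing T cells of each allograft, for CD8 and CD4 cells alike. Dividing CD8 T cells had 46.1, 44.9 and 46.5 CPM in the allografts, against 71.6, 91.7 and 79.2 CPM in CD8 T cells with no sign of division. Dividing CD4 T cells had 67.2, 79.4 and 65.1 CPM, against 97.1, 148.5 and 116 CPM in those not dividing. Dividing cells were deeper, with medians of 16226, 12218 and 14854 UMIs in CD8 cells, against 7771, 5929 and 5854 UMIs. The part of that depth was not tested. Among dendritic cells the conventional type 1 cells, which carry antigen to CD8 T cells, had 24.3, 38.9 and 20.8 CPM in the allografts, against 63.1 CPM in the isograft, in 23 to 57 cells per library.

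T-bet drives the type 1 programme of lymphocytes, to which Cxcr3 belongs. Of 9 other genes of that programme, 8 were higher and 1 lower in T cells than in phagocytes of the allografts (median log2 difference 3.64, against -0.01 over all genes), and 8 were higher in NK cells (median 3.97). Of all genes, 30.3% were higher in T cells and 20.1% in NK cells. Tbx21, the gene of T-bet, was higher by 4.05 in T cells (SE 0.29, edgeR adjusted p = 2.84e-10) and by 5.36 in NK cells (SE 0.31, edgeR adjusted p = 9.42e-11). Of 13 other chemokine receptors tested, 5 were higher and 5 lower in T cells, led by Ccr8 (6.16, SE 0.61, edgeR adjusted p = 3.52e-07) and Cxcr6 (5.31, SE 0.39, edgeR adjusted p = 3.74e-10).

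Transcripts of 2 genes whose proteins remove or trim the ligands differed between classes. Ackr3, the scavenging receptor for CXCL11, was higher than in phagocytes in fibroblasts (5.52, SE 0.45, edgeR adjusted p = 9.99e-10) and endothelial cells (3.70, SE 0.43, edgeR adjusted p = 1.99e-07) of the allografts. It stood at 84.7, 134.2 and 100.5 CPM in fibroblasts of the allografts, against 68.0 CPM in the isograft. Dpp4, the peptidase that inactivates these chemokines by trimming them, was higher than in phagocytes in T cells (2.14, SE 0.29, edgeR adjusted p = 1.47e-06) and in dendritic cells (3.96, SE 0.31, edgeR adjusted p = 1.11e-08). Dendritic cells had 94.6, 103.1 and 121 CPM of Dpp4 in the allografts, against 136 CPM in the isograft. Neither gene passed between grafts in any class tested.

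The genes whose levels ran most like each member were found over 38 sums of a class in a library, which share libraries and depth, so the correlations are descriptions. Cxcl9 ran closest to Gbp8 (Pearson r = 0.94), Ubd (0.93), Tgtp2 (0.92), Tap2 (0.90) and Iigp1 (0.90) among 12862 genes. Cxcl10 ran closest to Gbp5 (0.83), Tapbp (0.80), Ifit3 (0.80), Xaf1 (0.79) and Ube2l6 (0.78). Its r with Cxcl9 was 0.64 and with Cxcl11 0.73. Cxcl11 ran closest to Gbp5 (0.86), Cxcl9 (0.85), Gbp8 (0.84), Il18bp (0.84) and Tap1 (0.83). The best match of Cxcr3 was Gm15472 (0.83).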

How the data were processed

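The deposited matrices hold raw counts of UMIs per gene and cell barcode, made by the authors from 10x Genomics 3' v3.1 libraries; per the submitters' processing notes with Cell Ranger 3.1.0 on mm10, whereas per the file headers the version is 6.1.0. The sources used here do not say whether counting used strand.

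Barcodes with at least 500 UMIs, 300 genes and at most 20% mitochondrial UMIs were kept, and predicted doublets were removed (Scrublet in scanpy 1.11.5). The removed doublets numbered 199, 540 and 319 in the allografts and 1037 in the isograft. Each cell took the class whose markers scored highest, at least 1.25 times the second; 81.2%, 81.4% and 86.0% of allograft cells and 93.5% of isograft cells were classed. The classes are rebuilt and not the authors'.

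UMIs were summed per library and class with at least 20 cells and tested with edgeR 4.0.16 (TMM scaling, quasi-likelihood, adjusted p under 0.05). Within allografts the library was a block. DESeq2 1.42.0 was an alternative. In simulated phagocyte sums, 91% of 8-fold and 2% of 2-fold changes were recovered.

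The members and lists were chosen with earlier results of these data known. Genes named are the members, up to 4 genes per list with the largest change past the threshold, the 5 most correlated genes per member, and overlapping genes. Ifnb1, Ifng, Tnf, Rsad2 and further single genes named for their values in a class were chosen after those values were seen. One item withheld from the text is not reported here.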

Additional observations from a re-analysis of the deposited data

Results flagged for a closer look

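For 4 results the allogeneic effect in a class differed from that in phagocytes by a test of the difference itself, with edgeR's quasi-likelihood test. For Cxcl10 the effect was larger by 6.44 in neutrophils, 4.39 in fibroblasts and 3.50 in endothelial cells, on the log2 scale. For Cxcr3 it was larger by 4.18 in fibroblasts, beside T cell markers that summed to 75.6, 173.6 and 150.0 CPM in fibroblasts of the allografts and 15.6 CPM in those of the isograft. That Cxcr3 difference no longer passed without replicate 2 (4.10, edgeR adjusted p = 0.0714) or with classes from clusters (3.002, edgeR adjusted p = 0.0635), and the Cxcr3 change in fibroblasts by itself did not pass (edgeR adjusted p = 0.0874). The Cxcl10 difference in endothelial cells no longer passed without replicate 1 (edgeR adjusted p = 0.0781) or 2 (edgeR adjusted p = 0.141). All 4 rest on 1 isograft.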

How the results depend on the processing

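No paired analysis was possible because the allogeneic and isogeneic libraries share only replicate number 2. Of the values recomputed for the results that answer a comparison, 167 were counted as unchanged. For tested values that means the same direction and side of the threshold. For shares and ratios, which have no threshold here, it means a move smaller than the SD of the allografts. Of the others, 3 gained a call, 2 lost one, 1 turned direction and 1 was a share or ratio that moved further. Leaving out 1 allograft changed the most. Over the 3 such fits the Cxcl10 change ranged from 1.39 to 2.73 in all kept cells and from -0.22 to 0.88 in phagocytes, where the lowest value, without replicate 3, turned the direction; the Cxcl9 change in all kept cells ranged from 9.97 to 10.44; the Cxcl10 difference between endothelial cells and phagocytes ranged from 3.14 to 3.70. DESeq2 called Cxcl9 in all kept cells (10.26, adjusted p = 4.56e-78). With classes from clusters the mean log2 ratio of Cxcl9 to Cxcl10 in neutrophils was -1.18, against -1.72.

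Directions also turned when 1 allograft was left out. Cxcl10 then ranged from -0.32 (without replicate 3) to 1.07 in C1q macrophages, from -0.011 (without replicate 3) to 0.93 in monocytes and from -1.86 (without replicate 3, adjusted p = 0.0496, a call) to 0.19 in T cells. Cxcr3 ranged from -0.42 to 0.15 in dendritic cells, and from -0.16 to 0.98 in fibroblasts against phagocytes. Directions turned too for Cxcl10 in T cells with doublets kept (0.14), for Cxcr3 in dendritic cells with classes from clusters (0.21) and for the Cxcl9 difference between dendritic cells and phagocytes with classes from clusters (-1.33). None of these turned values passed. The causes were not tested. Without the library block, calls against phagocytes were lost for Cxcl10 in endothelial cells (0.80, adjusted p = 0.455), fibroblasts (1.22, adjusted p = 0.249) and dendritic cells (-1.50, adjusted p = 0.265). The number of genes called in phagocytes was 1278 by edgeR, 8159 without replicate 3 and 2400 by DESeq2; in endothelial cells 515, 4517 and 770; in fibroblasts 534, 1543 and 940; in neutrophils 130, 542 and 168; in dendritic cells 97, 1014 and 89. The recomputed differences of allogeneic effects were chosen after seeing the data. The single isograft, with 33 T cells and 12 Cxcl10 UMIs in neutrophils, limits every comparison between grafts.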
